A study of Mus musculus with 36 samples.

Results

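The comparison described here set the protein-coding transcriptome of brain from APP/PS1 mice against that of wild-type mice at 6 months of age. Its members were the long RNA libraries of that age, 3 of APP/PS1 and 3 of wild type, chosen by genotype, age and kind of library in the labels, 6 of the 36 samples of the series. The series also holds circular RNA and small RNA libraries, and the same genotypes at 9 months. APP/PS1 mice carry a mutant amyloid precursor protein, named APP695swe by the submitters, together with PS1-dE9, a mutant subunit of gamma-secretase, and the controls are labelled wild type. Both genotypes are labelled C57BL/6, and no treatment is labelled. The labels name neither the promoter of the transgenes nor the sex, brain region or animal behind a library. Whether the 3 libraries of one genotype stem from different mice is not stated, and a p-value therefore speaks only of the variation among these samples, part or all of it possibly technical. In whole tissue, fewer cells of a type and less RNA per cell cannot be told apart.

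Amyloid precursor protein is cut by beta- and gamma-secretase into amyloid-beta peptides, which gather into extracellular plaques. Microglia close to plaques take up a state known from other amyloid models, in which lysosomal, lipid-handling and receptor genes such as Trem2, Tyrobp and Cst7 are raised and some resting genes are lowered, and astrocytes near plaques raise the filament gene Gfap. Type I interferon-induced genes, chaperones of the endoplasmic reticulum, clock genes and activity-dependent genes of neurons have all been studied in such mice, so each was taken here as a list.

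Values are FPKM, fragments scaled by transcript length and library size, which the authors deposited per transcript and which were summed per gene. The 6 libraries summed to between 292539.5 and 298664.8 FPKM, with 16757 to 17034 genes above 0. Read depth is unknown, and from the step between low values the shallowest, APP/PS1 library 3, had an estimated 0.646 of the depth of wild-type library 1 and the deepest, wild-type library 3, 1.064. That estimate rests on a peak holding 5.5% to 8.23% of the low-value genes in these libraries and is rough. The extraction protocol names retinas while the tissue label says brain. Of 14 photoreceptor markers only Sag (arrestin) reached the mean of 0.5 FPKM needed for a test, at no more than 0.702 FPKM in any of the 6 libraries, and the phototransduction genes Gngt1 and Pdc were listed at 0 in all 6, while neuronal and glial markers were abundant. Of 11 cerebellar markers 5 were under the filter, among them Pcp2, Cbln3 and Gabra6 at or below 0.147 FPKM, while the other 6, Cbln1, Zic1, Zic2, Car8, Neurod1 and Itpr1, had mean levels of 2.89 to 3.42 on the log2(FPKM + 0.25) scale. The Y-linked gene Ddx3y lay between 26.3 and 31.3 FPKM in every one of the 6 libraries.

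App and Prnp, the gene of the labelled transgene and the prion protein gene, rose at 6 months, and the microglial cystatin gene Cst7 rose with them. App, the precursor of amyloid-beta, measured 436, 441 and 433 FPKM in wild type and 969.9, 971 and 1007 FPKM in APP/PS1. Prnp, the prion protein gene, measured 254, 249 and 256 FPKM in wild type and 718, 727 and 739 FPKM in APP/PS1. Both groups were tight and far apart for these genes. Whether reads of the transgenes were counted under App or Prnp is not stated, and their part in these values was not tested. Cst7, an inhibitor of cathepsins, measured 0.127, 0.0684 and 0.0599 FPKM in wild type and 2.03, 1.75 and 2.01 FPKM in APP/PS1, a log2 change of 2.71 (SE 0.21) with a limma adjusted p of 2.78e-04. All log2 changes here are differences of log2(FPKM + 0.25), APP/PS1 minus wild type, and understate the change of genes with low values. In all, 6 of 13593 genes (0.0441%) were called at an adjusted p under 0.05, 5 higher and 1 lower in APP/PS1.

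Of the other called genes, Gapdh, a glycolytic enzyme of every cell, had higher listed values in APP/PS1, Gm5900, which RefSeq lists as a pseudogene, fell, and Fahd1, a mitochondrial oxaloacetate decarboxylase, rose. Gapdh measured 4.32, 3.01 and 4.33 FPKM in wild type and 9.13, 11.6 and 11.5 FPKM in APP/PS1, that is 3.89 ± 0.757 FPKM in wild type and 10.8 ± 1.41 FPKM in APP/PS1 (SD, n = 3 in each), with a log2 change of 1.42 (SE 0.17) and a limma adjusted p of 0.0112. The 2 groups did not overlap, and the transcripts ENSMUST00000073605 and ENSMUST00000183272 were listed at 0 in all 12 long RNA libraries and most of the sum came from ENSMUST00000117757. At 9 months Gapdh measured 11, 10.1 and 7.67 FPKM in wild type and 9.14, 8.89 and 11.1 FPKM in APP/PS1, so that the 3 wild-type libraries of 6 months lay apart from the other 9. Without APP/PS1 library 2 of 6 months the adjusted p was 0.0703. Gapdh has many processed copies in the genome, and how the counting divided reads among them is not stated, so its value is uncertain. With transcripts of so widely used a gene listed at 0, the estimate itself may have failed, and the call is not taken as a rise of Gapdh mRNA.

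Gm5900 measured 2.47, 2.85 and 2.84 FPKM in wild type and 0.314, 0.744 and 0.765 FPKM in APP/PS1, with a log2 change of −1.84 (SE 0.23) and a limma adjusted p of 0.0167. Its 6 libraries of 9 months lay between 0.314 and 0.621 FPKM in both genotypes, so here too the wild-type libraries of 6 months stood apart from all the others. Fahd1 measured 5.09, 5.71 and 5.81 FPKM in wild type and 8.04, 8.49 and 7.7 FPKM in APP/PS1, with a log2 change of 0.53 (SE 0.07) and a limma adjusted p of 0.0471, and lay between 5.79 and 6.96 FPKM in the 6 libraries of 9 months. Gm5900 was not called without wild-type library 1, 2 or 3 of 6 months (adjusted p 0.0617, 0.0696 and 0.0575), and Fahd1 was not in 9 of 12 fits that left out one library (at most 0.237). For App, Prnp and Cst7, all 3 APP/PS1 libraries of 9 months, and none of the wild-type ones, lay on the APP/PS1 side of 6 months. The calls of Gapdh, Gm5900 and Fahd1 were lost when the libraries of 9 months were left out of the model (adjusted p 0.112, 0.196 and 0.261), where 4 genes were called and 3 of these were among the 6.

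**Figure D1:**
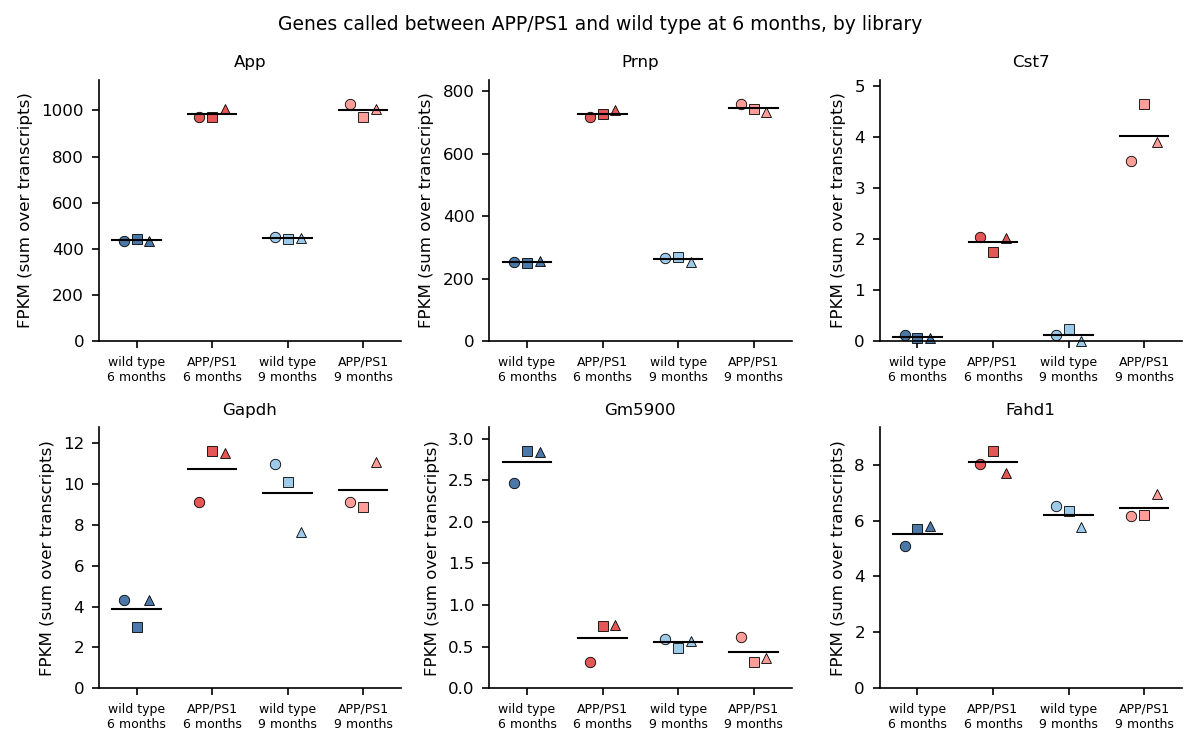
FPKM of the 6 called genes in each of the 12 long RNA libraries (vertical axis, summed over transcripts, from 0), grouped by genotype and age; circle, square and triangle are libraries 1, 2 and 3, and the line is the group mean. App, Prnp and Cst7 separate the genotypes at both ages, while for Gapdh and Gm5900 the wild-type libraries of 6 months (3.01 to 4.33 and 2.47 to 2.85 FPKM) stand apart from all other libraries.

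Below the calls lay many small differences. An unadjusted limma p under 0.05 was found for 633 genes that were higher (4.66%) and 963 that were lower (7.08%), against 679.7 of either direction when no gene differs. The median log2 change of all genes was −0.01. Of the 13593 genes tested, 6261 (46.1%) were higher in APP/PS1 and 7332 lower. Groups without overlap were found for 911 genes higher (6.7%) and 1243 lower (9.14%) in APP/PS1. These shares are the background for every list below.

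Among genes that were not called, the 12 of smallest p on the higher side, each without overlap between the groups, were Fut10, Cfap54, Bex1, Snrpd1, Slc16a1, C78339, Thumpd1, Snrpc, Cxcl12, Efr3a, Pcf11 and Gfap, with limma adjusted p between 0.0706 and 0.131. Cfap54, a structural gene of motile cilia, measured 1.62, 2.87 and 1.52 FPKM in wild type and 4.6, 5.06 and 3.97 FPKM in APP/PS1. Bex1, an X-linked adaptor gene of neurons, measured 24.1, 23.5 and 25.2 FPKM in wild type and 33.1, 34.2 and 40.9 FPKM in APP/PS1, a log2 difference of 0.56 (SE 0.09). Fut10, a fucosyltransferase gene, measured 1.57, 1.33 and 1.67 FPKM in wild type and 2.71, 2.73 and 2.22 FPKM in APP/PS1. For Cfap54 and Fut10 the wild-type libraries of 6 months were again the ones apart, since all 6 libraries of 9 months lay on the APP/PS1 side. Cfap54 was called without wild-type library 2 (adjusted p 6.24e-04) and Fut10 without APP/PS1 library 3 (0.0323), both of 6 months. Snrpc was called without wild-type library 3 of 9 months (0.0152). Each was called in only 1 of 12 fits that left out one library. In the others the limma adjusted p reached 0.26 for Cfap54, 0.26 for Fut10 and 0.31 for Snrpc.

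Snrpd1, a core protein of the spliceosome, measured 19, 18.3 and 19 FPKM in wild type and 25.3, 25.1 and 22.4 FPKM in APP/PS1, and Snrpc, of the particle that reads splice donor sites, measured 12.8, 12.6 and 13.1 FPKM in wild type and 17.2, 17.3 and 16.3 FPKM in APP/PS1. Pcf11, a factor that cleaves transcript ends, measured 10.9, 11.8 and 11.2 FPKM in wild type and 14.3, 15.3 and 13.8 FPKM in APP/PS1. Thumpd1, an adaptor for RNA acetylation, measured 13.1, 11 and 12.9 FPKM in wild type and 17.3, 16.9 and 15.7 FPKM in APP/PS1, and none of its 6 libraries of 9 months lay on the APP/PS1 side. The rest were Slc16a1, the lactate and pyruvate transporter of endothelium and glia, at 7.86, 8.0 and 8.42 FPKM in wild type and 10.2, 10.6 and 10.3 FPKM in APP/PS1, the chemokine gene Cxcl12 at 12.7, 12.6 and 13.3 FPKM in wild type and 14.7, 15.3 and 15.2 FPKM in APP/PS1, and Efr3a, which anchors a lipid kinase at the plasma membrane, with a log2 difference of 0.27 (SE 0.05). The log2 difference of C78339 was 0.25 (SE 0.05).

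Gfap, the intermediate filament of astrocytes, measured 56.2, 62 and 61 FPKM in wild type and 86.3, 92.1 and 109 FPKM in APP/PS1, a log2 difference of 0.67 (SE 0.14) with a limma adjusted p of 0.131 at 6 months. At 9 months it measured 52.8, 75.6 and 61.1 FPKM in wild type and 149, 112 and 132 FPKM in APP/PS1 and was called, with a log2 change of 1.06 and an adjusted p of 0.0138.

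On the lower side the 12 genes were Alpk1, Hdac1, Mxd4, Cthrc1, Hist1h2ao, Arpp21, R3hdm4, Sspn, Adora2a, Tsc22d3, Cdk18 and Grhpr, with limma adjusted p between 0.0667 and 0.122. Alpk1, a kinase of innate immune sensing, measured 1.83, 1.78 and 1.59 FPKM in wild type and 0.88, 0.917 and 1.15 FPKM in APP/PS1. Mxd4, a repressor of the Myc network, measured 25.3, 27.4 and 23.8 FPKM in wild type and 20.4, 18.7 and 17.9 FPKM in APP/PS1. Tsc22d3, a glucocorticoid-induced leucine zipper gene, measured 51.9, 55.2 and 46.6 FPKM in wild type and 33.3, 37.2 and 30.1 FPKM in APP/PS1, and its groups did not overlap at 6 months, while no library of 9 months reached the APP/PS1 side. Cthrc1, a secreted protein with a collagen-like repeat, measured 3.56, 4.06 and 4.53 FPKM in wild type and 1.13, 1.21 and 2.33 FPKM in APP/PS1, and differed the other way at 9 months, with a log2 difference of 0.78. Sspn, a membrane protein of the dystrophin complex, measured 2.7, 2.58 and 1.72 FPKM in wild type and 1.04, 1.08 and 1.12 FPKM in APP/PS1. For Sspn and Hist1h2ao all 3 wild-type and all 3 APP/PS1 libraries of 9 months lay on the APP/PS1 side. The wild-type libraries of 6 months were thus the ones apart. For Alpk1 and Adora2a all 3 wild-type libraries of 9 months and 1 of APP/PS1 lay on that side. With APP/PS1 library 3 of 6 months left out, Cthrc1 and Alpk1 were called (limma adjusted p 8.16e-04 and 0.0251), as was Mxd4 without APP/PS1 library 1 (0.0323) and Sspn without wild-type library 3 (0.0170). Each was called in only 1 of 12 such fits. In the others the limma adjusted p reached 0.26 for Cthrc1, 0.253 for Alpk1, 0.253 for Mxd4 and 0.282 for Sspn.

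Adora2a is one of the listed markers of striatal projection neurons, and Arpp21 is not in that list. Arpp21, a phosphoprotein regulated by cyclic AMP, measured 70.1, 66.7 and 57.3 FPKM in wild type and 50.9, 46.7 and 48.1 FPKM in APP/PS1 at 6 months, a log2 difference of −0.41 (SE 0.07), and was called there without wild-type library 3 (limma adjusted p 0.0109). That was the only 1 of 12 such fits to call Arpp21 at 6 months, with a limma adjusted p of up to 0.295 in the others. At 9 months it measured 66.4, 59.7 and 61.7 FPKM and 44.6, 45.5 and 45.3 FPKM and was called, with a log2 change of −0.47 and a limma adjusted p of 0.0335. Adora2a, an adenosine receptor of the indirect pathway, measured 18.1, 14.6 and 15.4 FPKM in wild type and 12.6, 11.1 and 11.6 FPKM in APP/PS1, and differed the other way at 9 months (log2 0.23). The remaining genes, the kinase gene Cdk18, the glyoxylate reductase Grhpr, the histone gene Hist1h2ao and R3hdm4, had log2 differences of −0.31, −0.24, −0.46 and −0.29.

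**Figure D2:**
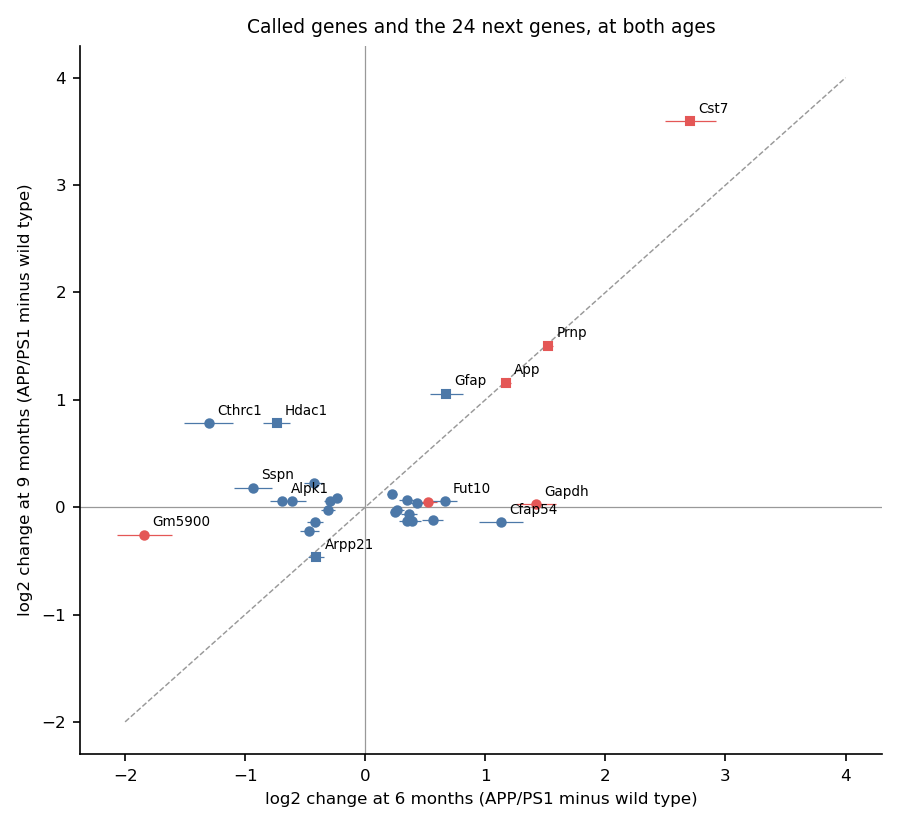
Log2 change at 6 months (horizontal axis, with its SE) against that at 9 months (vertical axis, other libraries) for the 6 genes called at 6 months (red) and the 24 next genes (blue); squares were called at 9 months, and the dashed line marks equal change. Cst7, Prnp, App, Gfap and Arpp21 have the same sign at both ages and were called at 9 months, while Hdac1 and Cthrc1 lie at −0.74 and −1.31 at 6 months and at 0.78 and 0.78 at 9 months.

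Hdac1, a class I histone deacetylase, was the only gene whose genotype difference was called as differing between the ages (1 of 13593, 0.00736%). It measured 7.27, 5.29 and 5.3 FPKM in wild type and 3.75, 3.5 and 3.07 FPKM in APP/PS1 at 6 months, and 3.04, 3.01 and 3.09 FPKM in wild type and 5.38, 5.21 and 5.64 FPKM in APP/PS1 at 9 months. The groups did not overlap at either age and lay in opposite order. The difference of the log2 differences was −1.52 with a limma adjusted p of 0.0174. Gm10093, which RefSeq lists as an Hdac1 pseudogene, measured 0.643, 2.02 and 1.89 FPKM in wild type and 3.28, 3.28 and 2.95 FPKM in APP/PS1 at 6 months, and the sum of both was 7.91, 7.31 and 7.19 FPKM in wild type and 7.04, 6.78 and 6.01 FPKM in APP/PS1. How reads were divided between the copies is not stated, so the value of Hdac1 alone is uncertain. Of 10 histone deacetylase genes 8 were lower, with a median of −0.05, and 3 of them, Hdac1, Hdac4 and Hdac11, had an unadjusted p under 0.05, beside 7.08% of all genes. Hdac2 was the one higher at that level, with a log2 difference of 0.12 (SE 0.05).

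The genes of plaque-associated microglia were mostly higher in APP/PS1 at 6 months, and Cst7 was the only one called. Of 20 tested of the 22 listed, 16 were higher in APP/PS1, 6 with an unadjusted p under 0.05 and none lower at that level, with a median log2 difference of 0.13 against −0.01 over all genes. The list's mean level was 3.78, 3.69 and 3.68 in the wild-type libraries and 4.02, 3.95 and 4.01 in the APP/PS1 libraries on the log2(FPKM + 0.25) scale, without overlap. Cst7, with its log2 change of 2.71, is part of this mean and among the 6, and no mean without it was taken. Tyrobp, the signalling adaptor of Trem2, measured 13.1, 8.13 and 10.8 FPKM in wild type and 17.1, 14.7 and 16.5 FPKM in APP/PS1. Trem2, a lipid-sensing receptor, measured 7.78, 5.4 and 6.69 FPKM in wild type and 8.92, 7.82 and 8.95 FPKM in APP/PS1. The groups did not overlap for either gene.

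The cathepsin genes Ctsz and Ctsd, lysosomal proteases, measured 14.7, 15.4 and 15.4 FPKM in wild type and 19.1, 20.8 and 17.1 FPKM in APP/PS1 for Ctsz and 122, 125 and 121 FPKM in wild type and 134, 142 and 140.1 FPKM in APP/PS1 for Ctsd, with log2 differences of 0.32 and 0.18 and limma adjusted p of 0.158 and 0.218. At 9 months Ctsz, Ctsd and Trem2 were called, with log2 changes of 0.50, 0.54 and 1.05, and the median of the list was 0.35. None of these 3 genes had a difference between the ages that was called. Itgax and Clec7a, surface receptors that define the state, were under the filter, with Clec7a at 0.0690, 0 and 0.0240 FPKM in wild type and 0.239, 0.548 and 0.455 FPKM in APP/PS1, and Itgax at no more than 0.592 FPKM.

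Resting microglial genes were not lower as a group. Of 13 homeostatic genes 11 were higher in APP/PS1, with a median of 0.16. Cx3cr1, the fractalkine receptor, measured 10.7, 9.54 and 10.9 FPKM in wild type and 12.4, 12.2 and 12.6 FPKM in APP/PS1, and P2ry12, a purine receptor of resting microglia, measured 11.7, 9.28 and 12 FPKM in wild type and 13, 15.7 and 13.6 FPKM in APP/PS1. Siglech measured 3.67, 2.88 and 2.96 FPKM in wild type and 3.58, 4.6 and 4.11 FPKM in APP/PS1, with overlap. Tmem119, a surface marker of resident microglia, measured 10.5, 10.3 and 9.9 FPKM in wild type and 9.38, 9.08 and 8.15 FPKM in APP/PS1 and was the only one lower at an unadjusted p under 0.05, though with covariates for choroid plexus and striatal levels its log2 difference was 0.0026 in place of −0.20. All 9 tested complement genes were higher, with a median of 0.09, and one of them, the integrin gene Itgb2, had an unadjusted p under 0.05, at 1.62, 1.56 and 1.45 FPKM in wild type and 1.81, 1.72 and 2.09 FPKM in APP/PS1. Of 13 antigen presentation genes 11 were higher, with a median of 0.14 and none at that level.

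Type I interferon-induced genes were higher in APP/PS1 in 17 of 19 cases, with a median log2 difference of 0.25, and 7 of them, or 36.8%, had an unadjusted p under 0.05 on the higher side, beside 4.66% of all genes. No gene of the list was called. The list's mean level was 1.07, 1.05 and 1.01 in the wild-type libraries and 1.27, 1.34 and 1.40 in the APP/PS1 libraries, without overlap, and its median at 9 months was 0.25. Lgals3bp, a secreted scavenger-receptor protein, measured 4.02, 4.36 and 4.32 FPKM in wild type and 5.21, 7.35 and 7.41 FPKM in APP/PS1. Bst2, also named tetherin, which holds enveloped virus at the cell surface, measured 1.67, 2.34 and 1.7 FPKM in wild type and 2.37, 3.66 and 4.59 FPKM in APP/PS1. Ifit3, which binds foreign RNA together with its relatives, measured 3.41, 3.17 and 3.31 FPKM in wild type and 3.99, 3.61 and 5.01 FPKM in APP/PS1. The groups did not overlap for these genes, but did for the membrane protein genes Ifi27, at 12.7, 14.9 and 11.5 FPKM in wild type and 15.8, 16.2 and 14.5 FPKM in APP/PS1, and Ifitm3, at 5.22, 6.98 and 5.19 FPKM in wild type and 8.05, 6.31 and 8.9 FPKM in APP/PS1. Levels of most members were low, and Rsad2, Mx1, Ifi44, Oas1a and Usp18 did not reach the filter.

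The windows before the starts of these genes often held the letters GAAANNGAA of the interferon response element on either strand. In the 250 bases before each start, 7.13% of 32851 RefSeq windows and 9 of 22 windows of the list (40.9%) held them, and 19 of the 24 listed genes matched the RefSeq table (GRCm38.p6). Oas1a and Rsad2, which did not reach the filter, also held a match. The following stretches are shown for Bst2 and Ifit3, the tested genes named above with a match. They are read in the direction of the gene, with matching letters in capitals. They lie at chr8:71537558-71537632, minus strand, with the nearest match beginning 124 bases before the start, and at chr19:34583344-34583465, plus strand, with the nearest match beginning 102 bases before it. A match to these letters is a description and not a test of binding.
Bst2: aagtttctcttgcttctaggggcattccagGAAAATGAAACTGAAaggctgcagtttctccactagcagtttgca
Ifit3: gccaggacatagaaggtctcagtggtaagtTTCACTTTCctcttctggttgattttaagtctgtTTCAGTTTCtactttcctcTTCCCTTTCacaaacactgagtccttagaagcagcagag

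The medians of the astrocyte lists lay close to that of all genes, and single members differed more. Of 14 reactive astrocyte genes 9 were higher, with a median of 0.05. Beside Gfap, the proteoglycan gene Srgn measured 2.7, 2.63 and 2.54 FPKM in wild type and 3.32, 3.34 and 3.13 FPKM in APP/PS1 without overlap, and Aspg, an asparaginase gene, measured 0.742, 0.856 and 0.725 FPKM in wild type and 0.857, 1.36 and 1.23 FPKM in APP/PS1. Hspb1, a small heat shock protein, lay on the other side, at 6.24, 11.2 and 13 FPKM in wild type and 5.93, 8.2 and 5.6 FPKM in APP/PS1, with overlap and a log2 difference of −0.56 (SE 0.23). Of 12 general astrocyte markers 8 were higher, with a median of 0.05 at 6 months and −0.03 at 9 months. On the higher side 4 (33.3%) were without overlap, beside 6.7% of all genes. The list's mean level was 5.74, 5.75 and 5.76 in the wild-type libraries and 5.81, 5.80 and 5.80 in the APP/PS1 libraries, without overlap. Sox9, a transcription factor of astrocytes, measured 7.42, 6.26 and 8.41 FPKM in wild type and 8.75, 8.64 and 10.6 FPKM in APP/PS1, and the water channel gene Aqp4 measured 25, 24.2 and 24 FPKM in wild type and 25.5, 26.4 and 29.9 FPKM in APP/PS1.

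Genes that process or clear amyloid-beta lay close to all genes, with 5 of 15 higher and a median of −0.06. Aplp1, a paralog of App, measured 455, 441 and 426 FPKM in wild type and 428, 396 and 384 FPKM in APP/PS1. Mme, which encodes the amyloid-degrading protease neprilysin, measured 4.76, 5.17 and 4.63 FPKM in wild type and 4.43, 4.2 and 3.4 FPKM in APP/PS1, and its groups did not overlap. Of 14 other Alzheimer risk genes 11 were higher, none with an unadjusted p under 0.05. Lysosomal hydrolases and membrane proteins were higher in 12 of 19 cases, with a median of 0.06. On the higher side 4 (21.1%) were without overlap, beside 6.7% of all genes. The list's mean level was 4.25, 4.25 and 4.24 in the wild-type libraries and 4.33, 4.32 and 4.29 in the APP/PS1 libraries, without overlap. Laptm5, a lysosomal protein of immune cells, measured 12.4, 10.3 and 9.81 FPKM in wild type and 13.4, 11.8 and 13.9 FPKM in APP/PS1, Lamp2 had a log2 difference of 0.18 (SE 0.07) and the peptidase gene Tpp1 one of 0.14 (SE 0.06). Cholesterol synthesis genes had a median of 0.01 at 6 months and 0.21 at 9 months. Among them Srebf2, the sterol-sensing regulator, and Mvk, mevalonate kinase, had log2 differences of 0.09 and −0.20.

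**Figure D3:**
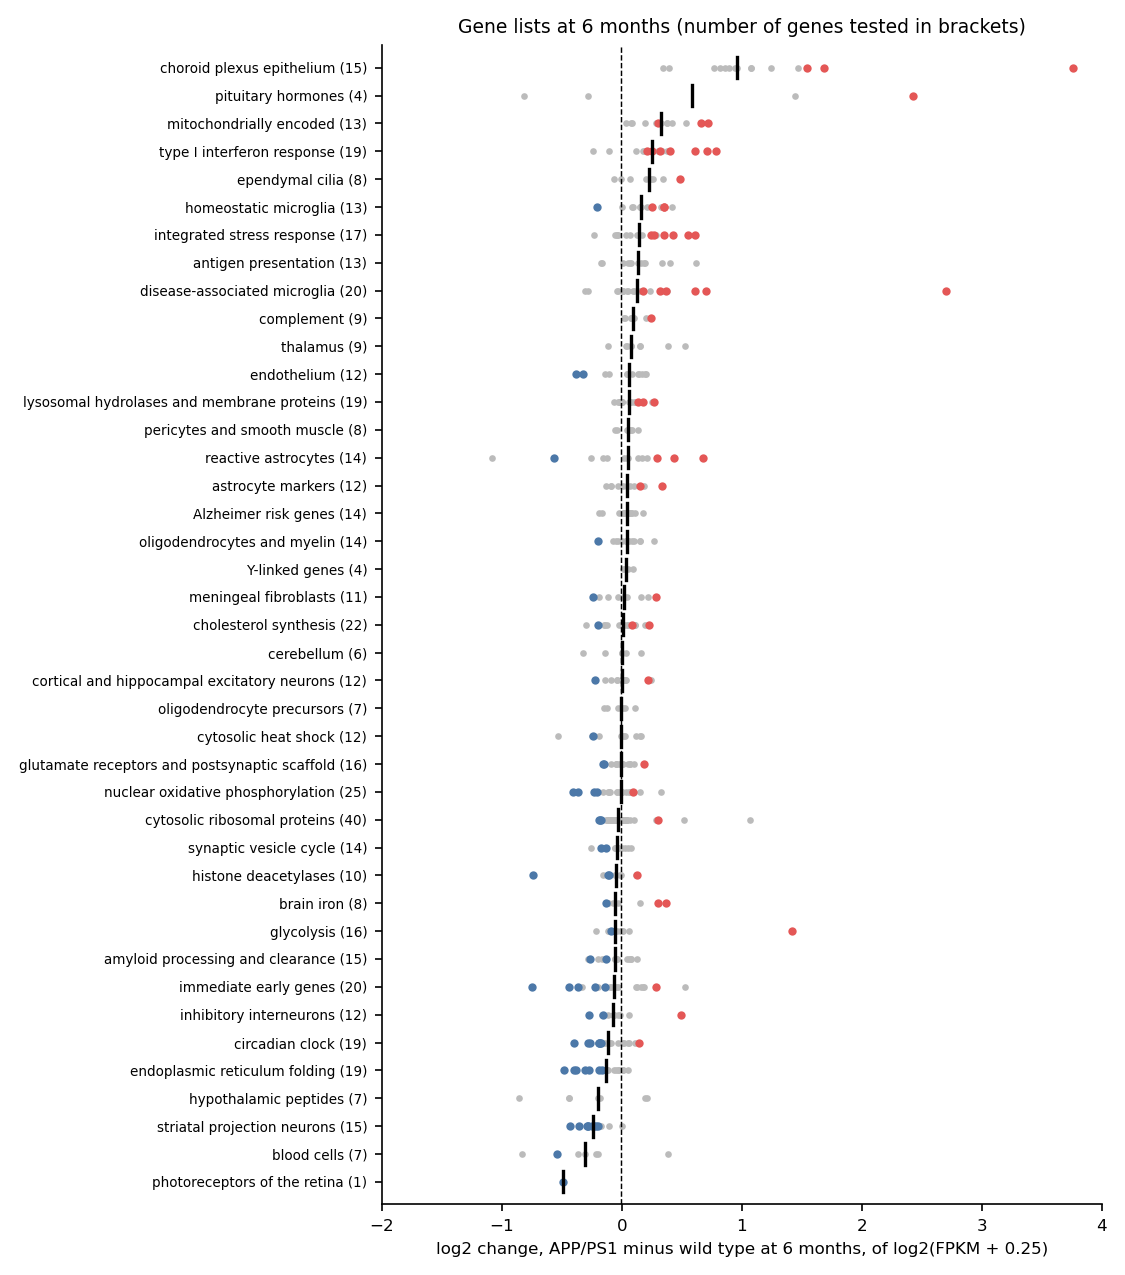
Log2 difference at 6 months (horizontal axis) of every tested member of the 41 gene lists, with the number tested in brackets; red and blue points had an unadjusted limma p under 0.05 on the higher or lower side, the black bar is the list's median and the dashed line the median of all genes (−0.01). Choroid plexus genes lie highest (median 0.96), interferon-induced genes at 0.25, and striatal projection neuron genes at −0.24.

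Activity-dependent and clock genes were lower in most cases, as were 7332 of all 13593 genes tested. Of 20 immediate early genes 13 were lower in APP/PS1, 5 with an unadjusted p under 0.05, and the median was −0.06, beside −0.32 at 9 months. Npas4, a neuronal activity-induced transcription factor, measured 3.97, 3.51 and 3.9 FPKM in wild type and 2.66, 2.37 and 1.58 FPKM in APP/PS1, a log2 difference of −0.75 (SE 0.17) without overlap. Fosl2 measured 13, 14.7 and 16.4 FPKM in wild type and 12.3, 10.4 and 11.3 FPKM in APP/PS1 and Fosb 5.67, 6.03 and 8.35 FPKM in wild type and 4.65, 4.11 and 5.81 FPKM in APP/PS1, both parts of the AP-1 factor. Egr4, a zinc finger factor, measured 14.8, 15.4 and 17.9 FPKM in wild type and 13.9, 13.1 and 14 FPKM in APP/PS1. Nr4a1, an orphan nuclear receptor, lay on the other side, at 20.1, 18.4 and 24.8 FPKM in wild type and 29.5, 23.8 and 23.6 FPKM in APP/PS1 with overlap, and had a log2 difference of −0.56 at 9 months.

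Of 19 clock genes 13 were lower, 7 with an unadjusted p under 0.05 (36.8%, beside 7.08% of all genes) and 9 without overlap (47.4%, beside 9.14%), and none was called. Tef and Dbp, paired activators of clock output, measured 87.6, 89 and 82.4 FPKM in wild type and 75.7, 75 and 76.4 FPKM in APP/PS1 for Tef and 47.1, 41.2 and 41.9 FPKM in wild type and 32, 29.7 and 37.4 FPKM in APP/PS1 for Dbp, with log2 differences of −0.19 (SE 0.04) and −0.40 (SE 0.08). Per2 and Cry2, repressors of the clock's main loop, measured 9.82, 10.7 and 10.5 FPKM in wild type and 8.05, 8.73 and 8.96 FPKM in APP/PS1 for Per2 and 39.2, 39.1 and 38.3 FPKM in wild type and 36.1, 32.4 and 34.8 FPKM in APP/PS1 for Cry2. Nr1d2, a repressor of the accessory loop, measured 34, 35.4 and 36.4 FPKM in wild type and 28.8, 32.4 and 31.4 FPKM in APP/PS1. The groups did not overlap for any of these 5 genes. At 9 months Tef and Dbp had log2 differences of 0.02 and 0.14, and Per2 one of −0.26. Dbp was called at 6 months in only 1 of 12 fits that left out one library. That was the fit without APP/PS1 library 3 (limma adjusted p 0.0272, and up to 0.295 in the others). The time of day at which tissue was taken is not given, so its part in these values was not tested.

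The E-box letters CACGTG, the sequence bound by the clock's activators, stood in 6.02% of all RefSeq windows of 250 bases and in 6 of 23 windows of the list (26.1%). Of the 19 listed genes 17 matched the RefSeq table, and 5 genes held the letters. Of the named genes Tef has it, in the windows of 2 starts, chr15:81802516-81802581, plus strand and chr15:81811246-81811311, plus strand (GRCm38.p6). The D-box letters TTANGTAA, which Tef and Dbp bind, stood in 2.06% of all windows and in 2 of the 23, and no named gene held them. The stretches of Tef are printed with the match in capitals.
Tef, upstream start: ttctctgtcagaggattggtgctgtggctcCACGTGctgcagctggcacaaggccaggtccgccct
Tef, downstream start: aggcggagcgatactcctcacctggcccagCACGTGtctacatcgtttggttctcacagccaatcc

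Genes of the integrated stress response and genes of protein folding in the endoplasmic reticulum lay on opposite sides, a contrast that was not itself tested. Of 17 integrated stress response genes 12 were higher, 6 (35.3%) with an unadjusted p under 0.05 and none lower at that level, and the median was 0.14, beside −0.03 at 9 months. Atf4, the transcription factor at its centre, measured 32.3, 33.8 and 36.1 FPKM in wild type and 46.8, 47.7 and 43.3 FPKM in APP/PS1. Its known targets Asns, asparagine synthetase, and Chac1, which breaks down glutathione, measured 35.8, 30.8 and 32.4 FPKM in wild type and 45.2, 39.8 and 41.4 FPKM in APP/PS1 for Asns and 3.07, 2.81 and 3.21 FPKM in wild type and 4.97, 4.4 and 4.29 FPKM in APP/PS1 for Chac1. The groups did not overlap for these genes, for the cysteine tRNA ligase gene Cars, at 10.7, 10.6 and 10.1 FPKM in wild type and 12.6, 12.2 and 12.4 FPKM in APP/PS1, or for Sesn2, a sensor of amino acids, at 3.52, 3.49 and 3.01 FPKM in wild type and 4.72, 3.81 and 3.71 FPKM in APP/PS1. Atf4 was called in only 1 of 12 fits that left out one library. That was the fit without wild-type library 3 of 9 months (limma adjusted p 0.0288, and up to 0.365 in the others).

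The amino acid response element, searched as TGATGNAA on either strand, stood in 3.45% of all windows and in 6 of 20 windows of this list, with 18 of 19 genes matched. It is shown for Asns, at chr6:7693210-7693262, minus strand and 23 bases before the start, and for Chac1, at chr2:119351019-119351086, plus strand and 193 bases before it (GRCm38.p6, from RefSeq), since both were among the higher genes.
Asns: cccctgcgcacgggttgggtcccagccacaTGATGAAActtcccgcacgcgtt
Chac1: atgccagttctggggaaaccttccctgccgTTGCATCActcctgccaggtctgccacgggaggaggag

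Of 19 folding genes of the endoplasmic reticulum 16 were lower, 7 (36.8%) with an unadjusted p under 0.05 and none higher at that level, with a median of −0.13 at 6 months and −0.19 at 9 months. Hspa5, its main chaperone, measured 101, 134 and 149.8 FPKM in wild type and 85.9, 114 and 91.1 FPKM in APP/PS1, with overlap. Xbp1, the transcription factor that raises such chaperones, measured 34, 40.1 and 42.7 FPKM in wild type and 30.2, 33 and 30.9 FPKM in APP/PS1, without overlap. Sdf2l1 measured 8.35, 10.9 and 13.1 FPKM in wild type and 6.61, 8.2 and 7.89 FPKM in APP/PS1, without overlap, and the disulfide isomerase gene Pdia6 measured 36.8, 43.7 and 46.2 FPKM in wild type and 32.3, 40.5 and 32.1 FPKM in APP/PS1, with overlap. Dnajc3, a co-chaperone, had a log2 difference of −0.17 (SE 0.06). No member was called. Wild-type library 1 held the lowest wild-type value of Hspa5, Xbp1, Sdf2l1 and Pdia6. Cytosolic heat shock genes had a median of 0.00.

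All 13 mitochondrially encoded genes were higher in APP/PS1, with a median of 0.33, while nuclear genes of oxidative phosphorylation were not. The mitochondrial list's mean level was 10.17, 9.74 and 9.96 in the wild-type libraries and 9.97, 10.30 and 10.62 in the APP/PS1 libraries, and these overlap. The complex I subunit gene mt-Nd6 measured 515, 513 and 403 FPKM in wild type and 631, 615 and 516 FPKM in APP/PS1, and mt-Nd1, another subunit gene, 1264, 707 and 989 FPKM in wild type and 978, 1818 and 2223 FPKM in APP/PS1, so that APP/PS1 library 1 lay inside the wild-type range for mt-Nd1. With quantile normalization the median of the list was 0.036, so its size depends on the scaling. Of 25 nuclear genes 16 were lower, with a median of −0.01. Cox7c, of cytochrome oxidase, measured 167, 171 and 189 FPKM in wild type and 148, 145 and 119 FPKM in APP/PS1, and Atp5g1, a ring subunit of ATP synthase, 63.3, 59.1 and 63.4 FPKM in wild type and 57.5, 49.1 and 36.1 FPKM in APP/PS1. Uqcrq, of complex III, and Sdhb, of complex II, had log2 differences of −0.24 and −0.21. Cytosolic ribosomal protein genes had a median of −0.03, with Rpl23 at 39.9, 35.3 and 37.5 FPKM in wild type and 42.5, 47.9 and 48.6 FPKM in APP/PS1.

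Markers of striatal projection neurons were lower in APP/PS1 in 14 of 15 cases, 9 (60.0%) with an unadjusted p under 0.05, with a median of −0.24 at 6 months and 0.09 at 9 months. Beside Adora2a, Pde1b, a phosphodiesterase gene, measured 104, 94.6 and 93.2 FPKM in wild type and 84.1, 78.1 and 78.2 FPKM in APP/PS1. Ppp1r1b, which encodes the dopamine-regulated phosphatase inhibitor of striatal neurons, measured 147, 133 and 124 FPKM in wild type and 111, 113 and 107 FPKM in APP/PS1, and Penk, proenkephalin, measured 112, 106 and 104 FPKM in wild type and 95.1, 87 and 82.7 FPKM in APP/PS1. The groups did not overlap for any of these, and none was called. The list's mean level was 4.81, 4.77 and 4.70 in the wild-type libraries and 4.49, 4.58 and 4.50 in the other genotype at 6 months, against 4.42 to 4.50 in wild type and 4.38 to 4.70 in APP/PS1 at 9 months. The labels do not say how the brain was divided, and the part of dissection in these values was not tested.

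Of 12 interneuron markers 10 were lower, 2 with an unadjusted p under 0.05 and 1 higher at that level, with a median of −0.07 at 6 months, 0.01 at 9 months and 0.00 with choroid plexus and striatal levels as covariates. Hypothalamic peptide genes had a median of −0.20 over 7 genes, none at that level, and one of 0.70 with those covariates. Cortical and hippocampal excitatory markers had a median of 0.00, glutamate receptors and postsynaptic scaffolds one of −0.01, and synaptic vesicle genes one of −0.04. Pvalb, the calcium-binding protein of fast-spiking interneurons, measured 38.4, 35.3 and 39.1 FPKM in wild type and 30.4, 33.6 and 29.1 FPKM in APP/PS1, a log2 difference of −0.28 (SE 0.06) without overlap, and Slc32a1, the vesicular GABA transporter, 43.9, 45.5 and 48.6 FPKM in wild type and 45.4, 40.3 and 38.3 FPKM in APP/PS1 with overlap. Grin2b, an NMDA receptor subunit, measured 60.2, 62.1 and 63.9 FPKM in wild type and 70.4, 68.2 and 73.4 FPKM in APP/PS1, and the kinase subunit Camk2b 229, 224 and 224 FPKM in wild type and 212, 194 and 203 FPKM in APP/PS1. Gria4, an AMPA receptor subunit, had a log2 difference of −0.15 (SE 0.05). Of 8 genes of brain iron handling, Tfrc, the transferrin receptor, measured 23.1, 22.2 and 23.1 FPKM in wild type and 29.3, 29.5 and 25.7 FPKM in APP/PS1, Trf, transferrin, 71.8, 67 and 84.1 FPKM in wild type and 84.6, 96.2 and 107 FPKM in APP/PS1, and Ireb2, an iron sensor, 23.3, 23 and 23.5 FPKM in wild type and 21.3, 21.5 and 20.8 FPKM in APP/PS1. Slc2a1, the glucose transporter of the blood-brain barrier, measured 53, 55.7 and 42.1 FPKM in wild type and 40.4, 35.7 and 38.6 FPKM in APP/PS1, and the junction gene Esam had a log2 difference of −0.33, while the endothelial list had a median of 0.06.

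Choroid plexus markers varied widely between the libraries of 6 months. All 15 tested were higher in APP/PS1, with a median of 0.96, but none separated the groups. Ttr, the transthyretin gene of choroid plexus, measured 1.34, 267 and 6.94 FPKM in wild type and 90.7, 302 and 277 FPKM in APP/PS1, so that wild-type libraries 1 and 3 held little of it and wild-type library 2 as much as APP/PS1. Without wild-type library 2 the log2 difference of Ttr was 5.86 with a limma adjusted p of 0.0220, against 3.76 and 0.351 with it. Kcne2 and Folr1, of the same epithelium, followed the same libraries, with Kcne2 at 0.0161, 0.892 and 0.0676 FPKM in wild type and 0.341, 1.86 and 1.67 FPKM in APP/PS1 and Folr1 at 0.106, 3.03 and 0.188 FPKM in wild type and 0.974, 4.15 and 2.93 FPKM in APP/PS1. The ependymal gene Ccdc153 measured 0.623, 0.722 and 0.589 FPKM in wild type and 1.0, 0.884 and 1.13 FPKM in APP/PS1. The thalamic list was at 1.85, 3.2 and 3.07 in the wild-type libraries and 2.55, 2.99 and 3.02 in the APP/PS1 libraries, lowest in wild-type library 1.

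With the choroid plexus and striatal levels of each library as covariates, 3 genes were called, App, Prnp and Cst7, and the limma adjusted p of Gapdh, Gm5900 and Fahd1 were 0.404, 0.101 and 0.680. The striatal level did not overlap between the genotypes at 6 months, at 4.70 to 4.81 in wild type and 4.49 to 4.58 in APP/PS1. Genotype and that level are thus poorly separated here, and a lost call does not tell them apart. Fahd1 kept a log2 difference of 0.53, and genes at an unadjusted limma p under 0.05 went from 1596 to 781 in that fit. Medians of the lists in that fit were 0.09 for plaque-associated microglia, 0.38 for interferon-induced genes, −0.14 for the clock, 0.13 for the integrated stress response and −0.13 for folding genes, beside 0.13, 0.25, −0.11, 0.14 and −0.13 without covariates. Those of complement and antigen presentation turned to −0.04 and −0.05, the ependymal list to −0.25, and the striatal and choroid lists went to −0.07 and −0.05, as the fit takes these levels out.

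**Figure D4:**
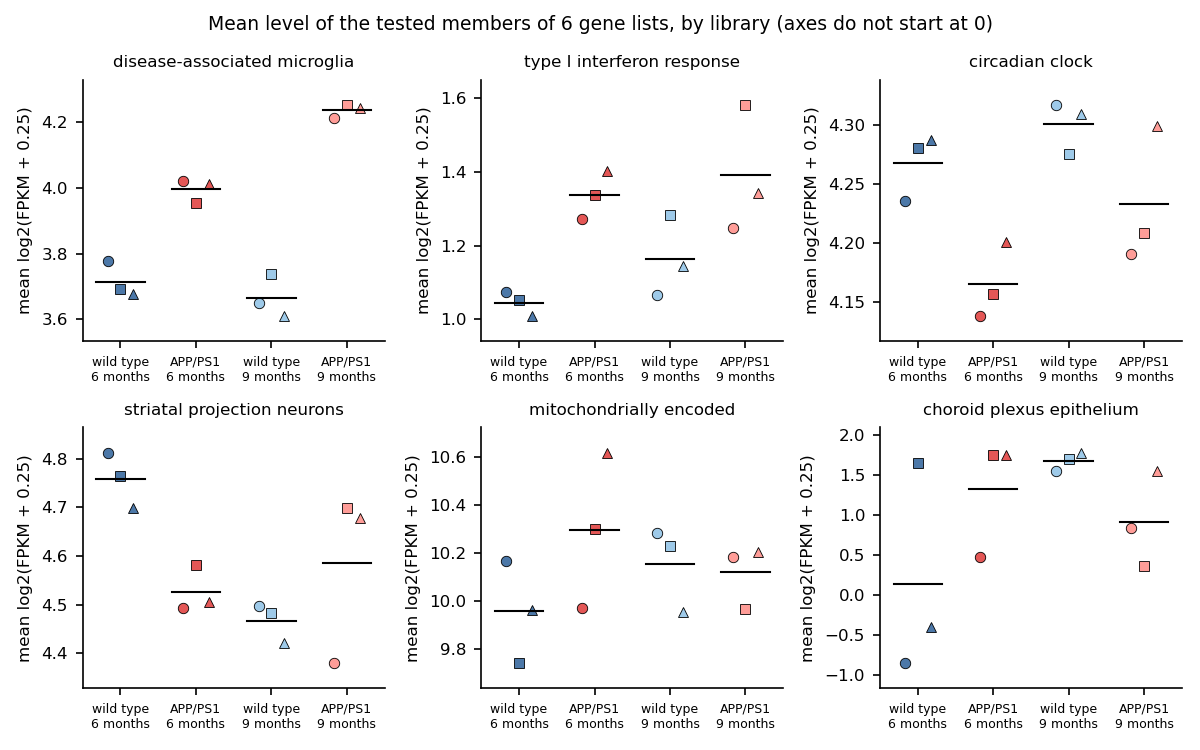
Mean of log2(FPKM + 0.25) over the tested members of 6 gene lists (vertical axes, which do not start at 0) in each of the 12 long RNA libraries, by genotype and age; circle, square and triangle are libraries 1, 2 and 3, and the line is the group mean. At 6 months the microglial, interferon, clock and striatal lists do not overlap between genotypes, while the mitochondrial and choroid plexus lists do, with wild-type libraries 1 and 3 at −0.85 and −0.39 for choroid plexus.

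At the level of transcripts, 10 of 22322 were called (0.0448%), those of App, Prnp and Cst7, one of Gapdh, and 6 in genes whose sums were not called. Stau1, a double-stranded RNA-binding protein that carries messages in dendrites, had a pair of transcripts that changed in opposite directions. ENSMUST00000109238 fell, with 17.8, 16.7 and 16 FPKM in wild type and 4.41, 6.54 and 7.43 FPKM in APP/PS1, a log2 change of −1.45 (SE 0.15) and a limma adjusted p of 0.0108. ENSMUST00000109235 rose, with 2.4, 2.46 and 2.85 FPKM in wild type and 6.29, 9.48 and 9.15 FPKM in APP/PS1, a log2 change of 1.58 (SE 0.16) and an adjusted p of 0.0108. The sum over Stau1 was 21, 20.0 and 19.9 FPKM in wild type and 12.6, 18.7 and 19 FPKM in APP/PS1, with an adjusted p of 0.385. At 9 months ENSMUST00000109235 lay between 2.17 and 2.87 FPKM and ENSMUST00000109238 between 17 and 18.1 FPKM in both genotypes. The APP/PS1 libraries of 6 months thus stood apart from the other 9 for both transcripts. Both calls held in all 12 fits that left out one library, but were lost with the 6 libraries of 6 months alone (adjusted p 0.139 for ENSMUST00000109235 and 0.222 for ENSMUST00000109238) and with choroid plexus and striatal levels as covariates (0.683 and 0.452).

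Phc1, a Polycomb repressor subunit, had a transcript, ENSMUST00000161054, that fell, with 6.4, 5.71 and 6.37 FPKM in wild type and 2.54, 1.92 and 2.66 FPKM in APP/PS1, a log2 change of −1.30 (SE 0.13) and a limma adjusted p of 0.0109. At 9 months it measured 6.86, 6.76 and 6.59 FPKM and 6.97, 6.77 and 5.16 FPKM, so here too the APP/PS1 libraries of 6 months were the ones apart. Kcnk13, a potassium leak channel of microglia, had ENSMUST00000049788 at 1.53, 1.64 and 1.86 FPKM in wild type and 0.0569, 0.217 and 0.0057 FPKM in APP/PS1 (log2 −2.53, adjusted p 0.0303), and it was at 1.18 to 2.75 FPKM in all libraries of 9 months. Its other transcript ENSMUST00000160413 measured 0.772, 1.08 and 0.988 FPKM in wild type and 2.33, 2.46 and 2.12 FPKM in APP/PS1. Fgfr1op2, a cytoskeletal protein gene, had ENSMUST00000058245 at 3.19, 1.72 and 2.51 FPKM in wild type and 0.194, 0.425 and 0.0736 FPKM in APP/PS1 (log2 −2.53, adjusted p 0.0303), and at 0.0997 to 0.271 FPKM at 9 months, so that the wild-type libraries of 6 months were apart. Its transcript ENSMUST00000111663 measured 4.4, 5.08 and 2.87 FPKM in wild type and 9.2, 15.5 and 13.4 FPKM in APP/PS1. The Phc1 transcript was called in all 12 fits that left out one library, and not with the 6 libraries of 6 months alone (0.134) or with the covariates (0.219). With the covariates the adjusted p was 0.683 for the Kcnk13 transcript and 0.757 for that of Fgfr1op2, and with the 6 libraries alone 0.134 and 0.237. The Kcnk13 transcript lost its call in 7 of the 12 (adjusted p up to 0.110) and the Fgfr1op2 transcript in 10 (up to 0.119). For these 3 genes the sums had adjusted p of 0.471, 0.514 and 0.956.

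Atg7, the activating enzyme of autophagy, had one transcript that separated the genotypes at both ages. ENSMUST00000182428 measured 2.57, 1.07 and 1.32 FPKM in wild type at 6 months and 4.67, 2.15 and 2.23 FPKM at 9 months, and was listed at 0 in all 6 APP/PS1 libraries. The limma adjusted p was 0.028 at 6 months and 0.0034 at 9 months, and no fold is given against values listed at 0, which can be failed estimates. The sum of its transcripts did not separate the genotypes, at 5.99, 7.13 and 6.76 FPKM in wild type and 6.83, 6.16 and 6.23 FPKM in APP/PS1. With a pseudocount of 1 the adjusted p at 6 months was 0.181, and the call was lost in 7 of 12 fits that left out one library (up to 0.0910), with the 6 libraries of 6 months alone (0.141) and with the covariates (0.757).

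Dnajb6, a co-chaperone that holds back amyloid-like aggregation, had no called transcript and no called sum at 6 months, but diffSplice called a difference among its transcripts (limma adjusted p 6.57e-05). That test made too many false calls in simulated data, so the call is not taken as a change in usage. In the test of each transcript's share with its own spread, described below, Dnajb6 was not called. There the limma adjusted p was 0.180 for ENSMUST00000012734 and 0.494 for ENSMUST00000114839 and ENSMUST00000008733. Of the 4 tested transcripts of Dnajb6 3 lay in the same order at both ages and 1 did not. ENSMUST00000114839, its most abundant transcript, measured 41, 40.5 and 40.1 FPKM in wild type and 55.2, 49.1 and 48 FPKM in APP/PS1 at 6 months and 44.6, 43.1 and 46 FPKM in wild type and 55.1, 53 and 53.1 FPKM in APP/PS1 at 9 months. ENSMUST00000012734 measured 1.66, 1.05 and 1.41 FPKM in wild type and 0.545, 0.476 and 0.60 FPKM in APP/PS1 at 6 months and 1.72, 1.74 and 1.71 FPKM and 0.654, 0.636 and 0.695 FPKM at 9 months. ENSMUST00000008733 measured 8.49, 8.81 and 8.17 FPKM in wild type and 4.86, 6.98 and 4.52 FPKM in APP/PS1, and 7.33, 7.54 and 7.4 FPKM and 4.92, 4.71 and 4.83 FPKM. The groups overlapped for none of these 3 at either age. The last one, ENSMUST00000140376, measured 0.776, 1.2 and 1.12 FPKM in wild type and 1.24, 1.55 and 1.47 FPKM in APP/PS1 at 6 months, with a log2 difference of 0.39 and no overlap, and 1.18, 1.25 and 1.36 FPKM and 0.467, 0.955 and 0.979 FPKM at 9 months, with a log2 difference of −0.57 and no overlap. The limma adjusted p at 6 months was 0.123 for ENSMUST00000114839, 0.123 for ENSMUST00000012734 and 0.218 for ENSMUST00000008733. For the sum of Dnajb6 it was 0.189. The libraries of the 2 ages are separate.

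**Figure D5:**
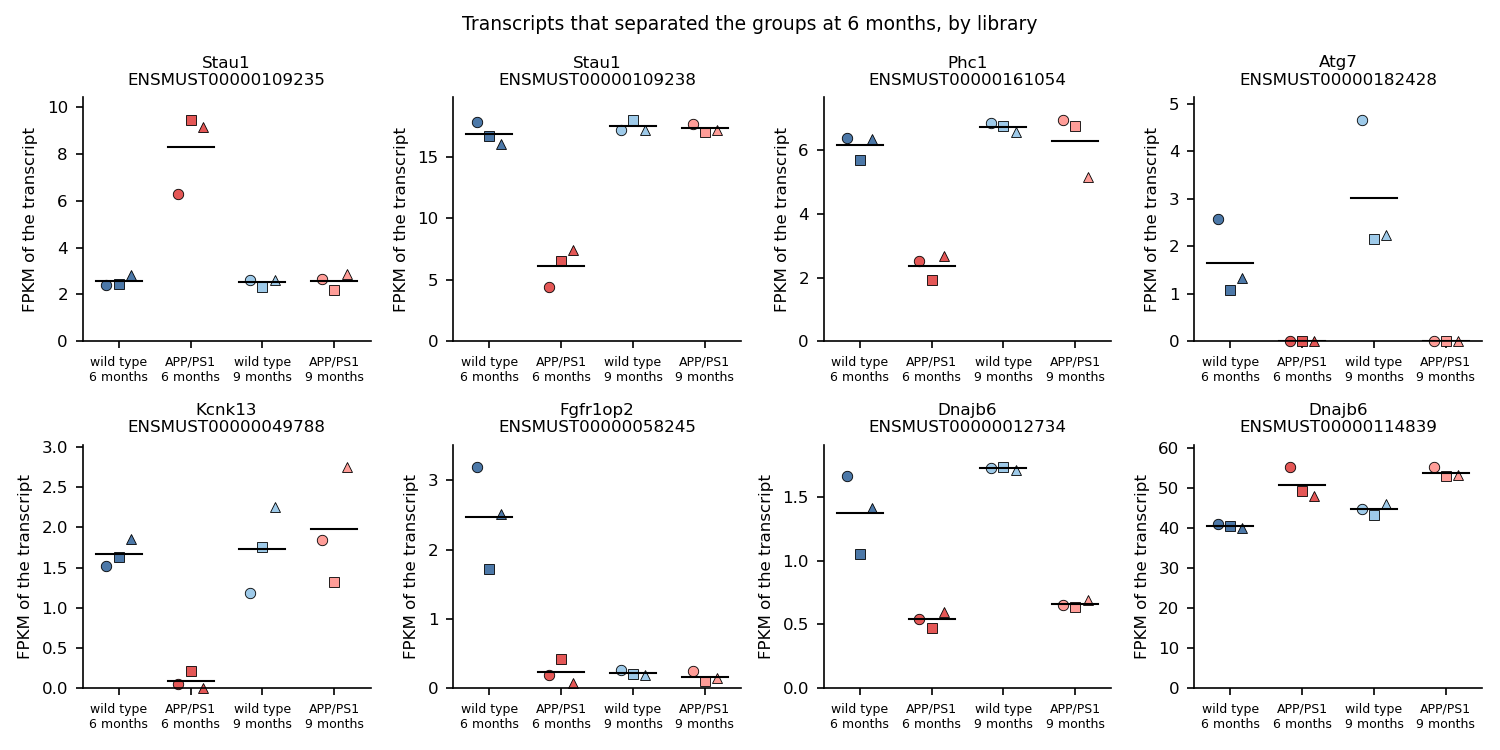
FPKM of 8 transcripts of 6 genes in each of the 12 long RNA libraries (vertical axes from 0), by genotype and age; circle, square and triangle are libraries 1, 2 and 3, and the line is the group mean. The Stau1 and Phc1 transcripts set the APP/PS1 libraries of 6 months apart from all others, the Fgfr1op2 transcript sets the wild-type libraries of 6 months apart, and those of Atg7 and Dnajb6 separate the genotypes at both ages.

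Among the other 8 transcripts of smallest p, not called, were ENSMUST00000105413 of the collagen gene Col6a2, at 0.851, 0.941 and 0.778 FPKM in wild type and 0.125, 0.124 and 0.137 FPKM in APP/PS1, ENSMUST00000185656 of the zinc finger gene Zfp287, at 0.359, 0.586 and 0.329 FPKM in wild type and 2.5, 2.26 and 2.16 FPKM in APP/PS1, and ENSMUST00000030078 of Hsdl2, a peroxisomal dehydrogenase gene, at 1.4, 1.19 and 1.38 FPKM in wild type and 4.28, 4.87 and 8.27 FPKM in APP/PS1. For each of them the groups did not overlap. The rest were the single transcripts of Gm5900 and Fahd1, ENSMUST00000174856 of Efr3a (log2 0.59 (SE 0.09)) and the pair of Dnajb6 with limma adjusted p of 0.123 and 0.123. At the level of transcripts the adjusted p were 0.0697 for Gm5900 and 0.0923 for Fahd1.

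Whether transcripts of a gene differed in their change was tested with diffSplice of limma, which called 32 of 4893 genes (0.654%). In simulated data with known changes this test made more false calls than its threshold allows, so the 32 are not taken as changes in usage. The 10 of smallest p were Anks1b, Ank2, Fgfr1op2, Stau1, Dnajb6, Zfp287, Col6a2, Tpm1, Gigyf2 and Arhgef2. Several of these rest on transcripts listed at 0 in a whole group. In Anks1b, a postsynaptic protein gene, ENSMUST00000182786 measured 4.31, 3.82 and 3.45 FPKM in wild type and 0, 0 and 0 FPKM in APP/PS1, and ENSMUST00000182053 measured 0, 0 and 0 FPKM in wild type and 2.0, 2.85 and 2.26 FPKM in APP/PS1, but at 9 months both were listed at 0 in some libraries of either genotype. In Ank2, the gene of a membrane anchor of neurons, ENSMUST00000182078 measured 16.9, 0.17 and 16.8 FPKM in wild type and 0, 0 and 0 FPKM in APP/PS1, and ENSMUST00000182112 measured 0.536, 10.3 and 0.575 FPKM in wild type and 12.2, 10.8 and 11.7 FPKM in APP/PS1, so that wild-type library 2 lay with APP/PS1. In Arhgef2 ENSMUST00000176804 measured 19.9, 0 and 20.6 FPKM in wild type and 0, 0 and 0 FPKM in APP/PS1. The test uses one estimate of spread for all transcripts of a gene. With each transcript's own spread, in a test of its log2 share against the rest of its gene that was added after seeing the data, calls were left in 2 genes, Stau1 (adjusted p 1.37e-04 and 3.49e-04) and Fgfr1op2 (0.0124). In simulated data this test, too, made slightly more false calls than its threshold allows.

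Of the 1596 genes with an unadjusted limma p under 0.05 at 6 months, 123 (7.71%) had such a p with the same sign at 9 months and 112 (7.02%) with the opposite sign. The mean of the wild-type libraries of 9 months lay nearer to wild type than to APP/PS1 of 6 months for 792 of them (49.6%), beside 48.5% of all genes. Genes named above that were called at 9 months with the same sign were App, Prnp, Cst7, Gfap, Arpp21, Ctsz, Ctsd and Trem2, and Hdac1 was called with the opposite sign.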

How the data were processed

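Long RNA libraries of mouse brain were compared, 3 of APP/PS1 and 3 of wild type at 6 months, with the 6 of 9 months in the same model. The authors deposited FPKM per transcript. Bowtie 0.12.2 and the mm8 build are named, per the submitters' processing notes, with no role. Not given in the sources used here were counting program, annotation and strand handling. The read depth is unknown, so no counting interval is given, and the precision rests on the spread between libraries. FPKM were summed per gene ID for 22154 genes, of which 13593 reached a mean of 0.5 FPKM over the 12 libraries and were tested. Of 48717 transcripts, 22322 were tested in the same way.

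The test was limma 3.58.1 (R 4.3.3) on log2(FPKM + 0.25), with a mean for each of 4 groups, an intensity trend and Benjamini-Hochberg adjustment over all features. A feature was called at an adjusted p under 0.05. Transcript usage was tested with diffSplice, and a contrast compared the genotype effect between the ages. An exact permutation test of 3 against 3 cannot go below p = 0.1 and was not used. The tests were tested on simulated data with known changes, where diffSplice made more false calls than its threshold allows, the gene test slightly more, and the transcript test missed part of even the largest changes. The added test of transcript shares made slightly more false calls than its threshold allows and missed part of the changes.

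Named genes were those called, then, among genes averaging 1 FPKM or more in the 6 libraries and without overlap, the 12 of smallest p in each direction, then up to 5 members of each list with the smallest unadjusted p under 0.05. Members needed to describe a list, such as Hdac2, Gm10093, Clec7a, Itgax and Siglech, were named after their values were seen. The comparison and the 41 gene lists (601 symbols, 599 in the table) were chosen with earlier results of these data known. Replicate numbers come from the sample titles, and nothing says that they pair the samples.

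Alternatives covered the pseudocount (1 and 0.1), the filter, quantile normalization, rescaling without mitochondrially encoded genes, the 6 libraries alone, choroid plexus and striatal levels as covariates, a replicate block, robust eBayes, the transcript of highest mean, and leaving out each library. Promoter windows are RefSeq's (GRCm38.p6), and no coordinate was taken from the files. Python 3.11.15, pandas 2.3.3 and numpy 2.4.6 were used for summaries. Some members of the lists are counted but not reported here by name.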

Additional observations from a re-analysis of the deposited data

Results flagged for a closer look

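Hdac1 is listed because its genotype difference was not the same at the 2 ages, by a test of that difference itself. Its log2 difference was −0.74 at 6 months and 0.78 at 9 months, and the first minus the second was −1.52, with a limma adjusted p of 0.0174. All 3 APP/PS1 libraries were below all 3 wild-type libraries at 6 months, and all 3 were above at 9 months. The call was lost without APP/PS1 library 2 of 6 months, wild-type library 1 of 9 months or APP/PS1 library 3 of 9 months, and with the covariates or the transcript of highest mean. The Hdac1 pseudogene Gm10093 had a log2 difference of 1.07 at 6 months, and the part of shared reads in the values of Hdac1 was not tested.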

How the results depend on the processing

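App, Prnp and Cst7 stayed called as gene sums under every alternative run. In the fit of transcripts, that of Cst7 was not called with the covariates (limma adjusted p 0.201) or with the replicate block (0.0657). The count of 6 genes became 3 with the choroid plexus and striatal covariates, and ranged from 4 to 17 when one library was left out, with 17 without APP/PS1 library 3 and 12 without APP/PS1 library 1 of 6 months. The count of 10 transcripts became 18 with no filter and 2 with the covariates, and ranged from 8 to 26 when one library was left out, with 24 without wild-type library 1, 24 without wild-type library 2 and 26 without APP/PS1 library 1 of 6 months. With the 6 libraries of 6 months alone, 14 transcripts were called, 3 of them among the 10. The count of 32 genes with a usage call became 78 with no filter and 2 with each transcript set against the rest of its gene, and ranged from 29 to 62, with 59 without wild-type library 1 and 62 without APP/PS1 library 1 of 6 months. The 1 gene differing between ages became 0 with the covariates (686 at an unadjusted limma p under 0.05) and 0 with the transcript of highest mean (1407), and ranged from 0 to 4 when one library was left out. The causes were not tested.

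Same-numbered libraries of 6 months, a wild-type and an APP/PS1 library each, had correlations of 0.126, 0.069 and −0.086. These are correlations of departures from the group means and not of expression levels. The same correlations for differently numbered libraries lay between −0.151 and 0.09. With the replicate block 3 genes, 3 transcripts and 2 genes differing between ages were called, and the transcripts of Stau1 had adjusted p of 0.0657 and 0.232 and that of Phc1 0.0657. Gapdh was lost without APP/PS1 library 2 (adjusted p 0.0703). Gm5900 was lost without wild-type library 1, 2 or 3 (0.0617, 0.0696 and 0.0575). Fahd1 was lost in 9 of 12 such fits and with no filter (0.0649). Siglech turned to −0.0763 with the transcript of highest mean, and Tmem119 to 0.0026 with the covariates. The share of higher genes at an unadjusted p under 0.05 was 39.7%, against 48.1% with quantile normalization and 48.2% with rescaling. Unknown depth limits transcripts of low FPKM most.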
